A study of Homo sapiens with 18 samples.

Results

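The regions described are 3558 stretches of the human genome, each 20 kb or longer, in which none of 4 deposited lists of linker histone H1 peaks held a peak. They are the intervals between consecutive peaks of the union of the lists on chromosomes 1 to 22 and X that contain no unknown base (N) of the genome build hg19 (GRCh37), and they were selected on the peak positions alone. They make up 1.35% of the 263285 intervals between peaks that hold no N, and another 229 intervals of 20 kb or more were left out because they hold N. Together the stretches span 95.5 Mb, which is 3.37% of the 2836 Mb of known sequence and 7.21% of all bases outside peaks. The union of the lists covered 53.2% of that sequence, and the median interval between peaks was 3800 bp.

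The lists came from HL-60/S4, an established human myeloid leukemia cell line, grown undifferentiated and without treatment, so that every list describes this 1 line. For xChIP-seq, chromatin of fixed cells was sheared by sonication, and antibody against H1.2 or H1.5 came afterwards. In xxChIP-seq the antibody was bound inside fixed, permeabilized cells and fixed again before sonication. Of 18 samples, 12 were immunoprecipitated, with 3 replicates for each antibody under each protocol, and the 6 Input samples were not used here. Each list is a merge of its 3 replicates without heights, scores or read counts, so depth and the spread between replicates are unknown, and every value below is a description without a test.

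Linker histones of the H1 family bind the DNA where it enters and leaves the nucleosome and help chromatin to fold. H1.2 and H1.5 are among the somatic variants, which bind broadly along chromosomes rather than at a few sites. A peak marks sequence that was recovered more often than its surroundings, so sequence without a peak need not lack H1.

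Repeated sequence bears on where a peak can be placed, because the authors kept uniquely mappable reads. To describe it, every word of 50 consecutive bases was looked up on both strands of the whole reference, and a word was called repeated when it occurred more than once. Only exact copies were counted, whereas the authors' alignment allowed some mismatches, so the share of repeated words is not a full measure of where reads can be placed. The share of repeated words is given for each stretch below. The 5 pieces printed here are the middle 100 bases of 5 stretches and show the range from unique to copied sequence. Capitals mark the 50-base word at the centre, and all are from the plus strand of GRCh37.
Longest stretch, chrX:146773235-146773334: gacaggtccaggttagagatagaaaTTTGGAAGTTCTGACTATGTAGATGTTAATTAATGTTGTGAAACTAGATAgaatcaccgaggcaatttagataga
Longest stretch of chromosome 16, chr16:46716794-46716893: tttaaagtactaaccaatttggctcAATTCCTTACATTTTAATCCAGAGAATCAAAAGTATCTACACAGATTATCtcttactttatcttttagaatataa
Longest stretch of chromosome 17, chr17:7538012-7538111: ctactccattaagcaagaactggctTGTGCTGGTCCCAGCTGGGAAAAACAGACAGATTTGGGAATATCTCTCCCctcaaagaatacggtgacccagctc
Most repeated stretch, chrX:52168533-52168632: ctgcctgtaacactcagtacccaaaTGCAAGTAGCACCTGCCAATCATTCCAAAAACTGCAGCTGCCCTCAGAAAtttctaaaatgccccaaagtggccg
Repeated stretch of chromosome 1, chr1:103811845-103811944: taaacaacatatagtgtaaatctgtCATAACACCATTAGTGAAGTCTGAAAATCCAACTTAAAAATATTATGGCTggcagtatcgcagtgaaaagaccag

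The capital words of the first 3 pieces occurred 1 time in the reference as exact matches, and copies with mismatches were not looked for. The word of the most repeated stretch had its other copy on the minus strand of the same chromosome, at chrX:52330567-52330616, and every word of this 33553-bp stretch was repeated. The chromosome 1 word had its other copy on the plus strand at chr1:103951602-103951651.

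Most stretches were only a little longer than the 20 kb that defined them. The median length was 23569 bp, with quartiles of 21453 and 27714 bp, and 2968 stretches (83.4%) were shorter than 30 kb. A further 523 stretches measured 30 to 50 kb, 47 measured 50 to 100 kb, and 20 measured 100 kb or more. The 20 longest were confined to 4 chromosomes, with 9 on X, 9 on chromosome 8, 1 on chromosome 16 and 1 on chromosome 10. Near the threshold, the shortest members measured 20000 bp on chromosome 14, 20001 bp on chromosome 7 inside the receptor gene EGFR, and 20002 bp on chromosome 1. The 3 longest intervals that fell below it measured 19998 bp each, on chromosomes X, 5 and 2, and 29863 intervals reached 10 kb.

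**Figure D1:**
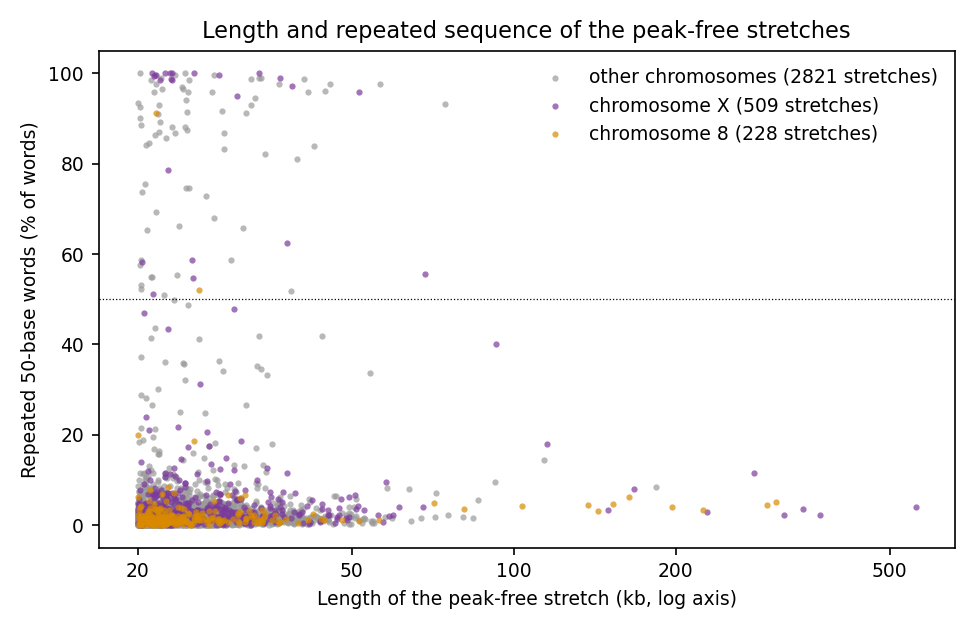
Each point is 1 of the 3558 peak-free stretches, placed by its length in kb (log axis) and by the share of its 50-base words that are repeated in the reference (%), with chromosomes X and 8 in colour and the dotted line at 50%. The 20 stretches of 100 kb or more have 2.19 to 18.1% of their words repeated, and 97 stretches, the longest of 74479 bp, lie at or above 50%.

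The stretches were unevenly spread over the chromosomes. Chromosome X held 509 of them, which took up 10.7% of its known sequence, and chromosome 5 held 400, which took up 5.87%. Chromosomes 16 and 8 followed with 5.30% and 5.17%. At the other end, stretches took up 1.09% of chromosome 22 and 1.31% of chromosome 19. X and chromosome 5 together carried 909 stretches, or 25.5% of all, on 11.6% of the sequence. X was also the chromosome with the lowest coverage by xChIP H1.2 peaks, 14.7% against 26.4% over all 23 chromosomes, and xChIP H1.5 covered 10.2% of it against 16.3%. By xxChIP, coverage of X was 14.6% against 20.2% for H1.2 and 12.1% against 17.2% for H1.5. The share of X in stretches was 9.01% outside the 3.43-Mb region with its longest stretches described next.

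**Figure D2:**
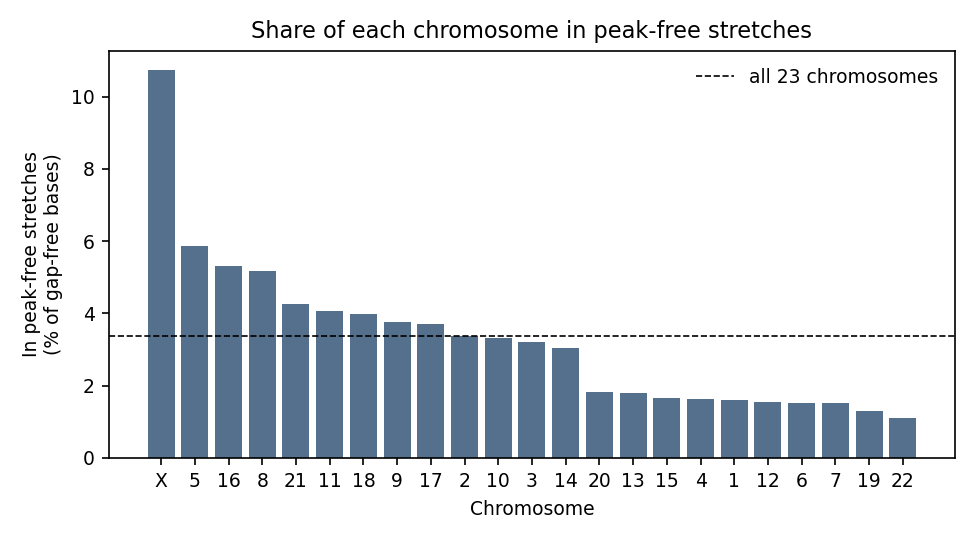
Bars give the percentage of the known bases of each chromosome that lies in peak-free stretches, in falling order, and the dashed line gives the 3.37% over all 23 chromosomes. The bar of X (10.7%) stands above that of chromosome 5 (5.87%), and the bars of chromosomes 19 and 22 are the lowest.

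The long stretches of X lay beside each other in Xq27.3 to Xq28. From the first to the last X stretch of at least 100 kb, at chrX:145206532-148638764, 18 stretches filled 84.98% of 3.43 Mb. The longest of all, chrX:146493909-147052661 with 558753 bp, held the whole of FMR1 (chrX:146993437-147032645, plus strand), whose product is an RNA-binding protein that is lost in fragile X syndrome. The second and the fourth longest, of 370057 and 317886 bp, lay over AFF2, the gene at a neighbouring fragile site, and 98.1% of its 500057 bp was in stretches. Another gene of the region, IDS, which encodes the lysosomal enzyme iduronate 2-sulfatase, was wholly inside a 115403-bp stretch.

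What interrupted the X stretches came mainly from xChIP. By xChIP, H1.2 peaks covered 10.5% of the 3.43 Mb and H1.5 peaks 4.27%, whereas by xxChIP the same variants covered 0.340% and 0.315%. The xxChIP lists held 9 and 7 peaks in the region, against 19 and 14 in the xChIP lists. The longest interval free of N and of peaks in each of the 4 lists taken alone lay here too: for xChIP it measured 732438 bp with H1.2 and 670259 bp with H1.5, and for xxChIP 879477 bp with H1.2 and 1499269 bp with H1.5. Repeated words made up 6.71% of this region, below the 10.8% of the 20-kb windows of X outside stretches.

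The long stretches of chromosome 8 alternated with dense peaks. They ran from chr8:125999528 to 131001910 in 8q24, where 17 stretches with a median length of 103 kb filled 41.2% of 5.00 Mb. Over the whole region, stretches included, xxChIP peaks took up 32.9% for H1.2 and 27.8% for H1.5, beside 20.2% and 17.2% over all chromosomes. The xChIP peaks took up 19.1% and 15.6% of the region, beside 26.4% and 16.3%. In the sequence between the stretches, where coverage is raised because peak-free bases were taken out, the values were 56.0% and 47.4% by xxChIP and 32.5% and 26.6% by xChIP. The pattern thus differed from that on X, where H1.2 peaks took up 70.1% of the sequence between the stretches by xChIP and 2.26% by xxChIP.

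Genes of 8q24 fell on both sides of these borders. SQLE, an enzyme of cholesterol synthesis, WASHC5, a subunit of the WASH complex of endosomes, LRATD2, and GSDMC of the gasdermin family were wholly inside stretches. CYRIB, which encodes a RAC1-binding protein, lay in a 307141-bp stretch for 84.4% of its length. POU5F1B, a relative of the stem cell gene POU5F1, was 88.4% in stretches. The transcription factor gene MYC and the pseudokinase gene TRIB1 had no base in a stretch, and both xChIP lists covered each of them in full, while both xxChIP lists covered 0%. HL-60 cells are known to carry extra copies of MYC, and copy number was not analysed here. Over the 9 stretches of 100 kb or more on chromosome 8, the share of repeated words ranged from 3.16 to 6.21%.

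Stretches also gathered in smaller runs on other chromosomes. Stretches no more than 100 kb apart were joined into blocks, and 1389 of them fell into 568 blocks of 2 or more, while 2169 stood alone. Of the 5 blocks with the most bases in stretches, 1 was on X, 2 were on chromosome 8, and the others were on chromosomes 2 and 16. The block at chr16:46500460-47014713, near the gap of the centromere, had 8 stretches that filled 92.2% of its 514254 bp, and the union of the lists covered 5.62%. It held VPS35 of the retromer complex, ORC6 of the origin recognition complex, C16orf87 and the chaperone gene DNAJA2 in full, and most of SHCBP1, MYLK3 and GPT2. Its interruptions were 8 xChIP H1.2 peaks and 1 xxChIP H1.5 peak, with none from the other lists. The block at chr2:133298993-134032307, over NCKAP5, LYPD1 and GPR39, had 13 stretches that filled 71.0% of it. Of NCKAP5, 51.6% was in stretches.

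**Figure D3:**
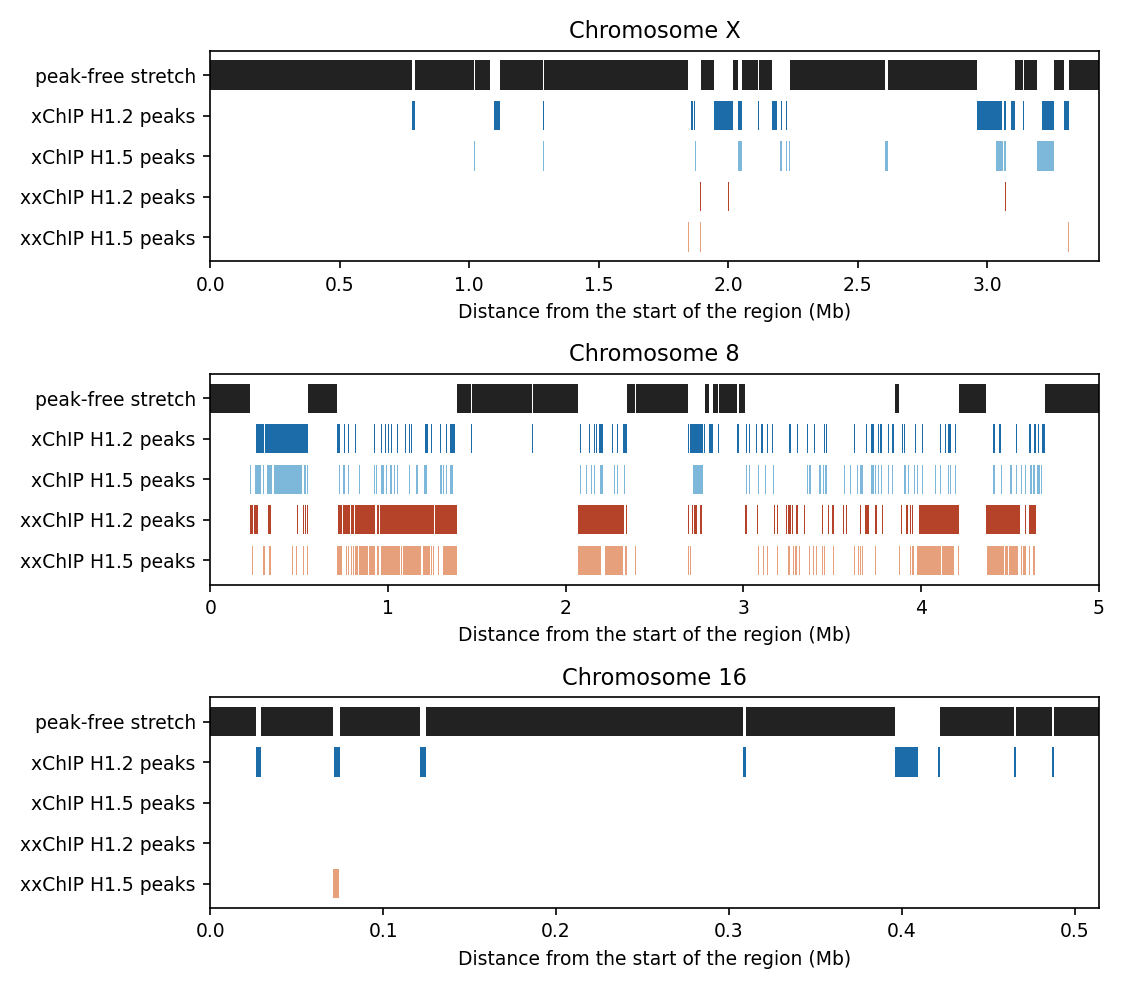
Tracks show the peak-free stretches (black) and the peaks of each list along 3 regions, with distance in Mb from the start of the region, for 3.43 Mb of X, 5.00 Mb of chromosome 8 and 0.514 Mb of chromosome 16. On X the xxChIP tracks are almost empty (0.340 and 0.315% covered), on chromosome 8 stretches alternate with dense xxChIP peaks, and on chromosome 16 peaks come mainly from xChIP H1.2.

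Smaller concentrations appeared over the rest of the genome. In windows of 5 Mb the median share in stretches was 2.21%, and 34 of 569 windows exceeded 10%, of which 13 were on X and 8 on chromosome 5, while 18 windows had no stretch. On chromosome 17 the longest stretch, of 92285 bp, spanned FXR2, a relative of FMR1, the hormone carrier gene SHBG, SAT2 and the sodium pump subunit ATP1B2. With 500 kb on either side, 20.7% of this gene-dense region was in 6 stretches, which also held KDM6B, a demethylase of histone H3, and PER1 of the circadian clock in full. Coverage there was 25.3% by xChIP H1.2 and 3.33 and 3.38% by the xxChIP lists.

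Few genes that are often deleted in leukemia lines lay mainly in stretches. Of 13 such genes, 6 overlapped a stretch, against 10.7% of 20098 protein-coding genes. The overlapping genes of the genome were long, with a median of 98.8 kb against 27.3 kb for all. The 13 genes were long too, with a median of 129 kb, so the shares were not matched for length. A start site was inside a stretch for 2 of the 13, beside 4.02% of all genes. CDKN2B (ENSG00000147883, chr9:22002902-22009304, minus strand), an inhibitor of cyclin-dependent kinases, was wholly inside a stretch, and no list had a peak on it. For CDKN2A the share in stretches was 31.0%, for ETV6 19.2%, for RUNX1 15.2% and for NF1 9.95%. MTAP, next to CDKN2A, had no base in a stretch, and xChIP H1.2 peaks took up 32.4% of it. RB1, ATM, IKZF1, BTG1 and WT1 also had no base in a stretch.

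Genes of common fragile sites, which are very long, were touched by stretches almost without exception. Of 18 such genes, with a median length of 1553 kb, 17 overlapped a stretch, beside 62.2% of the 323 protein-coding genes of 500 kb or more. Beyond that cutoff the sets were not matched for length. The share of the gene in stretches was highest for FHIT with 11.2%, followed by PDE4D with 10.4% and CSMD1 with 9.99%. DMD, the dystrophin gene, came next with 9.92%, beside 10.7% of the known sequence of its chromosome, X. The median over the 18 genes was 3.71%, beside 3.37% of all known sequence. Among 13 genes of myeloid cells, MYB, a transcription factor of blood progenitors, was 51.4% in stretches with its start inside. The other 12, among them MPO, ELANE, SPI1, CEBPA and CD33, had no base in a stretch. The count of 1 in 13 (7.69%) stands beside 10.7% of all protein-coding genes, and the 13 genes are short, with a median of 7.18 kb.

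Gene families listed for their duplicated sequence varied widely. Of 58 families with annotated genes, 42 had no member that overlapped a stretch, including NPIP (19 genes), USP17L (26), DEFB (40) and KRTAP (94). Over all 58 families 95 of 1589 genes (5.98%) overlapped, beside the 10.7% of all protein-coding genes, and overlap depends on gene length. Median lengths in the named families were 22.9 kb (NPIP), 1.59 kb (USP17L), 4.45 kb (DEFB) and 0.859 kb (KRTAP). The median of all protein-coding genes was 27.3 kb, so the shares were not matched for length. Without the OR, ZNF, PCDH and HLA families, described next, 29 of 575 genes (5.04%) in 54 families overlapped. In XAGE on X, a cancer-testis family, 4 of 8 genes overlapped. All 4 of these genes were wholly inside, with 99.0 to 100% of their words repeated.

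These 4 large families differed in their shares, and their members inside ranged from unique to mostly repeated. Their shares stand beside 10.7% of all protein-coding genes and were not matched for length. Median lengths were 2.08 kb (OR), 26.3 kb (ZNF), 105 kb (PCDH) and 8.31 kb (HLA). Olfactory receptor genes overlapped in 18 of 415 cases (4.34%), and 17 of the 415 had their start in a stretch, beside 4.02% of all genes. Most of the 18 lay in the receptor cluster of chromosome 11, such as OR51G1 and OR52D1, which had 0% repeated words, whereas OR52I1 had 38.3%. Zinc finger genes with ZNF symbols overlapped in 37 of 515 (7.18%), with 82.1% repeated words in ZNF705B. Protocadherin genes overlapped in 9 of 65 (13.8%), with PCDHB13 (25.3% repeated words), PCDHB14 and PCDHB15 wholly inside. In the HLA family 2 of 19 genes (10.5%) overlapped, and HLA-DQB1 was wholly inside with 0.729% repeated words. The 25 H2A and H2B genes of chromosome 6 had no overlap.

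Genes wholly inside a stretch numbered 302, and 68 of them lay on X. Of the 302, 247 (81.8%) had under 10% repeated words, beside 85.3% of all protein-coding genes, and 32 (10.6%) had 50% or more, beside 3.76% of all. A start site was inside a stretch for 807 genes, or 4.02% of all. The share was 5.83% of the 755 genes with 50% or more repeated words and 4.14% of the 17134 genes with under 10%. Among the whole genes were FOS, IRF8, KLF6 and EOMES, which encode transcription factors, the chemokine gene CXCL8, and S100A8, which encodes a calcium-binding protein of neutrophils. These 6 were picked after their values were seen.

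Homeobox genes, which encode transcription factors of development, were counted because several appeared among the whole genes, so the list was chosen after the values were seen. Of 197 homeobox genes, 33 overlapped a stretch (16.8%, beside 10.7% of all protein-coding genes). Of the 197, 23 had their start in one (11.7%, beside 4.02% of all genes). Wholly inside were 15, beside 302 of all 20098 protein-coding genes. The 15 were CDX4, EN1, HMX2, HMX3, HOXB5, IRX6, LHX1, NKX2-1, NKX2-4, NKX2-5, OTP, OTX1, PITX1, POU3F3 and POU3F4. Their share of repeated words ran from 0% to 3.21%, the highest in HMX3. PAX6, which directs eye development, was 91.5% in a stretch. A list of 17 type I interferon genes on chromosome 9, chosen in the same way, had 6 that overlapped, and IFNA4, IFNA7, IFNA10, IFNA8 and IFNK were wholly inside.

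Read over all members, the stretches held less repeated sequence than the rest of the genome. For comparison, all 133298 windows of 20 kb outside the stretches and free of N were measured in the same way. Repeated words made up 5.08% of the stretches and 7.76% of the windows, and the medians were 1.64% and 3.73%. In 22 of 23 chromosomes the share was lower in the stretches, and chromosome 10 was the exception with 9.86% against 7.76%. With words of 36 bases the shares were 7.76% and 12.7%, and with words of 100 bases 2.67% and 2.96%.

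A small class of stretches was nonetheless made of copied sequence. In 97 stretches (2.73%, 95% Wilson interval 2.24 to 3.31%, counting error only) at least 50% of the words were repeated, beside 2.47% of the windows. At the other end 3357 stretches (94.4%) had under 10% repeated, against 81.9% of the windows. Of the 97, 61 lay on X and chromosomes 16, 10 and 9, with 23 on X, and 7 chromosomes had none. Those chromosomes were picked for their high counts, and of all 3558 stretches they held 509 (X), 152 (16), 169 (10) and 173 (9). The block at chrX:52103810-52516981 with the XAGE genes had 9 stretches and 99.8% repeated words, and in 8 stretches of the genome every word was repeated. Protein-coding genes took up 17.9% of the bases of the 97, and 55.7% of those of the 3357. Start sites went the other way, with 12.6 per Mb in the 97 and 8.08 in the 3357.

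The mostly repeated stretches were also nearer to the large gaps of the assembly, which lie at centromeres and other unsequenced blocks. Of the 97, 17.5% lay within 2 Mb of a gap of at least 1 Mb. Over all stretches the share was 2.45%, beside 2.82% of the windows. Intervals that reach into a gap were left out as stretches, while their windows free of N were kept, so these shares are not on equal terms. No such share is given for mostly repeated windows. How far repeated sequence accounts for the stretches was not tested. In the reference the known sequence of chromosome Y was 22.98 Mb, and 9 stretches of X lie in the part at its tip that is shared with Y, where copies may not have been counted.

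Base composition differed little from the rest. GC content was 40.6% in the stretches and 40.9% in the windows, and it was higher in the stretches on 10 chromosomes and lower on 13. Single stretches ranged from 29.9 to 67.3% GC, and 252 of them (7.08%) reached 50%, beside 7.62% of the windows. CpG dinucleotides numbered 0.962 per 100 bp in the stretches and 0.989 in the windows.

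Gene content was higher in the stretches than in the windows. Of the stretches 63.9% (Wilson 62.3 to 65.5%) overlapped a protein-coding gene and 52.8% an exon of one, beside 52.7% and 39.5% of the windows, but stretches are longer than windows and so meet a gene more easily. Shares of bases do not depend on length in this way: 53.9% of stretch bases were in protein-coding genes, against 45.5%, and 5.54% in their exons, against 3.78%. Start sites numbered 8.45 per Mb against 7.08. The share of stretches that overlapped a gene and the share of bases in exons were higher in the stretches on 23 of 23 chromosomes. The smallest difference in exon share was on chromosome 12, with 4.77% against 4.56%, and the largest was on chromosome 22, with 19.5% against 6.15%. The 16 stretches of chromosome 22 are few.

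**Figure D4:**
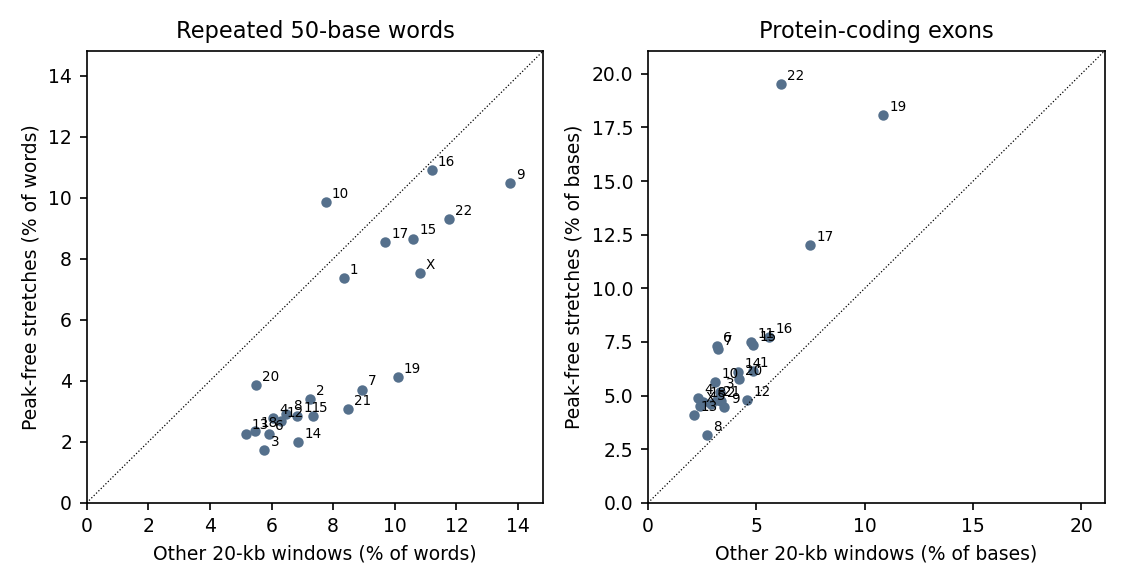
Each point is a chromosome, with the value in 20-kb windows outside the stretches on the horizontal axis and the value in peak-free stretches on the vertical axis, for repeated 50-base words (left, % of words) and exons of protein-coding genes (right, % of bases), and the dotted line marks equal values. For repeated words 22 of 23 points lie below the line, and for exons all 23 lie above it.

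The longest members had a smaller share of their bases in genes than all stretches together. The 67 stretches of 50 kb or more had 36.1% of their bases in protein-coding genes and 2.74% in exons, and 4.83 start sites per Mb. Counted per stretch, 61.2% overlapped a gene and 58.2% an exon, beside 63.9% and 52.8% of all stretches. These counts are not on equal terms, because longer stretches meet a gene more easily. The median length of the 67 was 67318 bp, against 23569 bp for all. Of their 7.45 Mb, the 9 stretches of 100 kb or more on X supplied 2.53 Mb and the 9 on chromosome 8 supplied 1.73 Mb. Their repeated words made up 7.87%, with a median of 3.57%, and 58 of the 67 were under 10%.

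All 4 lists set the edges of the stretches. By xChIP, H1.2 peaks formed 29.0% of the stretch edges and H1.5 peaks 21.4%, against 31.0% and 22.7% of the edges of all intervals between peaks. By xxChIP, H1.2 peaks formed 26.3% and H1.5 peaks 23.3%, against 24.8% and 21.6%. In each list alone the interval around a stretch was longer, with medians of 43608 bp (H1.2) and 49153 bp (H1.5) by xChIP and of 43002 bp (H1.2) and 46137 bp (H1.5) by xxChIP, and such intervals may span assembly gaps. With the lists of a protocol joined, the interval was longer for xChIP at 1819 stretches and for xxChIP at 1739. In each list alone, 33283 to 41191 gap-free intervals reached 20 kb.

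Coverage stayed low beside the stretches as well. In the 20 kb on either side, the xChIP lists covered 19.6% (H1.2) and 14.5% (H1.5) of the bases, against 26.4% and 16.3% of all known sequence. The xxChIP lists covered 18.4% (H1.2) and 15.8% (H1.5), against 20.2% and 17.2%. The first kb is high because a stretch ends at a peak, with 35.0% for xChIP H1.2. In flanks of 100 kb, coverage was 0.727 times the genome value for xChIP H1.2, and 0.832 to 0.864 times for the other lists. The xChIP H1.2 list thus had the lowest ratio. Other stretches were not taken out of the flanks, so the flanks include sequence that has no peak by the rule. Stretches within 100 kb of another numbered 1389. The genome value was also not matched by chromosome: 509 stretches lie on X, where xChIP H1.2 covered 14.7%.

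**Figure D5:**
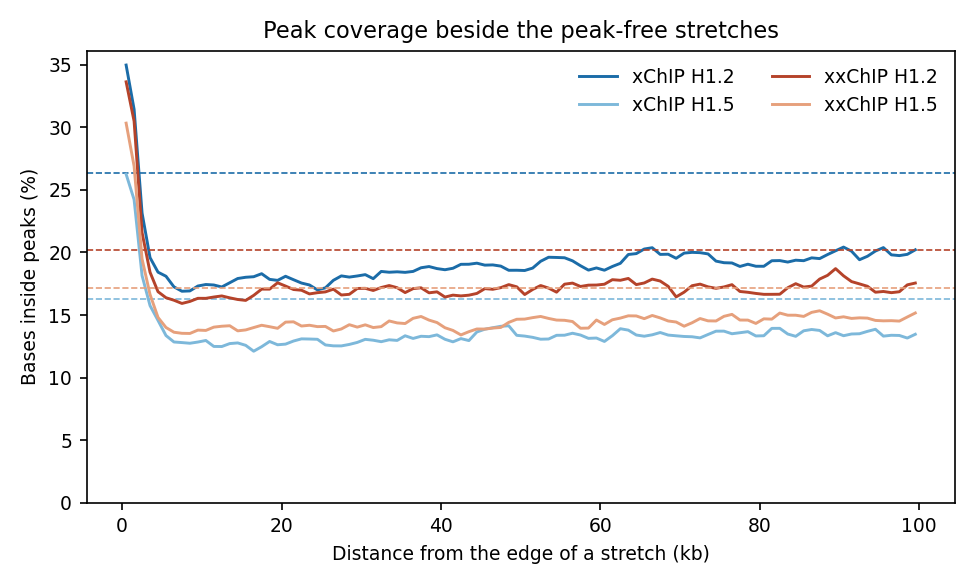
Lines give the percentage of bases inside peaks of each list in steps of 1 kb from the edge of a peak-free stretch outward to 100 kb, averaged over both edges of all stretches, and dashed lines give the percentage over all known sequence. After the first few kb each line stays below its dashed line, and the distance is widest for xChIP H1.2 (26.4% over all sequence). Other stretches that fall in the flanks were not taken out.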

How the data were processed

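ChIP-seq of the variants H1.2 and H1.5 in HL-60/S4 cells gave the peaks. The authors used Bowtie2 to place read pairs on hg19, allowed some mismatches and discarded reads without a unique position. Their caller was MUSIC with default settings, the peaks of replicates were merged, and the deposited lists give the chromosome, start and end of each merged peak in bp. Versions are not given in the sources used here. Merging can lengthen peaks and so shorten the stretches. Whether the authors' alignment reference held other sequences than the file used here is not known.

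The 4 lists were joined, and intervals of 20000 bp or more between consecutive peaks without N were kept. Words of 50, 36 and 100 bases were counted on both strands of all sequences of the GRCh37 primary assembly. Genes came from GENCODE v44lift37. Stretches were compared with all gap-free 20-kb windows outside them. No p-values were computed, since each list is 1 merge of 3 replicates. Wilson intervals are at 95%, cover counting error only, and treat stretches as independent, which neighbours are not. The word count and the search for stretches were tested on simulated data. Python 3.11.15, numpy 2.4.6, pandas 2.3.3, scipy 1.17.1, numba 0.67.0 and matplotlib 3.10.9 were used.

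The stretches and gene lists were chosen with earlier results of these data known. Named stretches are the 10 longest, the 10 longest with under 10% repeated words and the 5 most repeated. The 5 blocks with most bases in stretches and the 3 intervals on either side of the threshold are also named. The stretch of chromosome 17, the interferon and homeobox lists and the regions between the first and last long stretch were chosen after the values were seen. Named genes lie in these stretches or belong to the lists of deleted, fragile-site, myeloid and duplicated genes. Some listed genes and 1 sequence are not reported here. No gene matched 1 listed family, OPN1. Alternatives changed the length threshold, the lists joined, the word length, the cutoffs, the flanks and the joining distance.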

Additional observations from a re-analysis of the deposited data

How the results depend on the processing

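The number of stretches, 3558, rested on the length threshold and on every list. It was 29863 from 10 kb and 67 from 50 kb, and it was 10336 without xChIP H1.2, 6450 without xChIP H1.5, 8088 without xxChIP H1.2 and 7106 without xxChIP H1.5. It was 3558 again when peaks under 1000 bp were left out and 3787 with N allowed. Repeated words made up 7.76% with words of 36 bases, 2.67% with words of 100 bases, 4.98% with copies counted on chromosomes 1 to 22 and X alone, and 4.75% without chromosomes X and 8, a setting added after seeing the data. The share of mostly repeated stretches was 3.74% at a cutoff of 20%, 1.94% at 80%, 5.97% from 50 kb, 2.28% from 10 kb and 2.30% without stretches within 2 Mb of a large gap, also added later. Overlap with genes was 55.9% when at least 50% of the stretch had to lie in genes and 83.1% with all annotated genes. GC content was 39.4% as a median, 40.4% for stretches under 10% repeated, 40.5% from 10 kb and 40.7% without X and 8, the last added later. Flanks of 100 kb were covered to 19.2% (H1.2) and 13.6% (H1.5) by xChIP, and to 17.4% (H1.2) and 14.8% (H1.5) by xxChIP. Within 5 Mb of a large gap lay 6.46% of the stretches, and 372 blocks of 2 or more formed at 50 kb. The cause of these changes was not tested beyond the settings themselves. No paired analysis was possible because the lists hold no values per replicate, and leaving out a replicate could not be run for the same reason. Depth is unknown, so a stretch without a peak cannot be told apart from one with too few reads.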
